A study of Mus musculus with 4 samples.

Results

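Ketone body synthesis and export was followed in mouse liver through 5 genes: Acat1, Bdh1, Bdh2, Slc16a1 and Slc16a6. They were taken by gene symbol from a deposited table of 23920 genes, and the 8 transcript rows they occupy were summed per gene number. Liver was compared between C57BL/6 mice of the genotypes SREBP1c WT and SREBP1c KO, with 2 RNA-seq libraries each (WT and KO below). All 4 libraries came from males aged 12 weeks that had gone 24 h without food and had then eaten for 12 h. The labels give no allele or construct for the knockout and do not say whether each library is a separate animal, so the spread behind each p-value is that between libraries and may be technical. SREBP1c, the product of Srebf1, is the transcription factor that drives fatty acid synthesis after a meal.

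The liver makes ketone bodies in its mitochondria from the acetyl-CoA of fatty acid oxidation, mostly during fasting, and the pathway is turned down when feeding raises malonyl-CoA and insulin. A thiolase joins acetyl-CoA units, the product passes through HMG-CoA to acetoacetate in steps not analysed here, and a dehydrogenase reduces acetoacetate to beta-hydroxybutyrate. Proton-coupled monocarboxylate carriers then take both ketone bodies across the plasma membrane to tissues that burn them.

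One of the dehydrogenase genes, Bdh1, has a pair of annotated starts, and the values below lie almost wholly on the transcript from the upstream one. The stretches before both starts are therefore shown, beside that of Slc16a1, the only member stretch with a match among 3 motifs searched. Each is the 250 bases before a start on the plus strand of GRCm38.p6, from RefSeq, at chr16:31422047-31422296 for the upstream and chr16:31428503-31428752 for the downstream start of Bdh1, and at chr3:104638414-104638663 for Slc16a1. Capitals mark CpG dinucleotides in the Bdh1 lines and an E-box (CACGTG) in the Slc16a1 line.
Bdh1 upstream: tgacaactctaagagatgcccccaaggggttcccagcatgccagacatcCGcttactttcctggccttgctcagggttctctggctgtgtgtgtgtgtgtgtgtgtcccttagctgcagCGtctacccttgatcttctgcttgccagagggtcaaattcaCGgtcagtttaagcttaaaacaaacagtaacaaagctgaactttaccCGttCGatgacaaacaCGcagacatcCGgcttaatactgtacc
Bdh1 downstream: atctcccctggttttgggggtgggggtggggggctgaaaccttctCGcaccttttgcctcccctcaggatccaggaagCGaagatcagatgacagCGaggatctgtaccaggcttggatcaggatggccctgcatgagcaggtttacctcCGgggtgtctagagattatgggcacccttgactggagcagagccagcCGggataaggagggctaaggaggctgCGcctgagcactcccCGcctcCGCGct
Slc16a1: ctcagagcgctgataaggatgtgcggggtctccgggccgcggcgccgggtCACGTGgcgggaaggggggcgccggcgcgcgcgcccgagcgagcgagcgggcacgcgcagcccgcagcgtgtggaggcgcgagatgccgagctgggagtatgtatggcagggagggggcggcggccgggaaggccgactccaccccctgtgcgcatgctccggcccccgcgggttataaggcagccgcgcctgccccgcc
The Bdh1 stretches held 7 CpG before the upstream start and 9 before the downstream start, against a median of 6 over 32851 promoters of this length, and their GC content was 49.6% and 60.8%. The stretch of Slc16a1 held 37 CpG, more than 97.8% of promoters. Its E-box begins 200 bases before the start, and 6.02% of all promoters hold these letters on either strand. The sterol regulatory element in the form TCACNCCAC (1.05% of all promoters) and a direct repeat bound by PPAR factors, AGGTCA followed after any base by AGGTCA (0.0335%), were not matched on either strand in the 4 stretches of Bdh1, Bdh2 and Slc16a1. No match overlapped another, since the E-box was the only one. Acat1 and Slc16a6 were not among the promoters used. These matches are letters in a window and say nothing of binding.

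The targeted gene was measured first. Srebf1 had 63.7 and 58.2 FPKM (fragments scaled to transcript length and to the mapped fragments of the library) in WT, against 8.63 and 6.97 in KO (log2 difference -2.82, SE 0.13, limma adjusted p = 0.00172). Its single row covers SREBP1a as well as SREBP1c. Low values of single-row genes lay near steps of 1 fragment, which imply a depth of 22.4 M (mega) fragments in either library numbered 1 and of 20.5 M in either library numbered 2. Only 48.3% to 51.3% of those values lay within 0.1 of a whole fragment, so the depths are approximate. Alb, the gene of albumin, was listed at 0 in all 4 libraries. The reason is not given in the sources used here, so a 0 in this table may not mean absent RNA. Of 10 other hepatocyte markers all were tested and none was called, with summed levels of 36178 and 40177 FPKM in WT against 37261 and 39969 FPKM in KO. The sum is mostly apolipoproteins. Of the 10 differences 5 were above 0 and 5 below. Without overlap, 3 had KO above WT and 3 had KO below WT, against 38.7% of all genes in either direction. Cps1, the first enzyme of the urea cycle, was among those below, with 620 and 621 FPKM in WT against 362 and 400 FPKM in KO. Its log2 difference was -0.70 (limma adjusted p = 0.246), and it was the only 1 of the 10 with an unadjusted p under 0.05. KO replicate 2 stood apart in other respects: 17 acute phase genes lay at a median of 1.09 log2 units against the WT mean there, compared with -0.40 for KO replicate 1, and Saa2 had 407 FPKM there against 13.8 to 23.7 FPKM elsewhere. The 5 genes were not at an extreme together in that library: it was the lowest for Acat1, the highest for Slc16a1 and neither for Bdh1, Bdh2 and Slc16a6.

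None of the 5 genes passed the limma threshold of 0.05 after adjustment over all 9820 genes with a mean of at least 1 FPKM, a threshold that 0.0713% of the tested genes passed. The KO libraries of Bdh1 both lay above its WT libraries, and the other 4 genes overlapped between the genotypes. Over all genes tested 38.7% did not overlap, 22.4% with KO above WT, so 1 of 5 is near the background. All 5 genes passed the filter on low values. Their median log2 difference, KO minus WT, was 0.03, against 0.02 over all genes tested. Of the 5 differences 4 were above 0 and 1 below, and 54.6% of all genes tested were above 0. At an unadjusted p under 0.05 limma had 1 of the 5, Bdh1, against 7.75% of all genes tested.

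**Figure D1:**
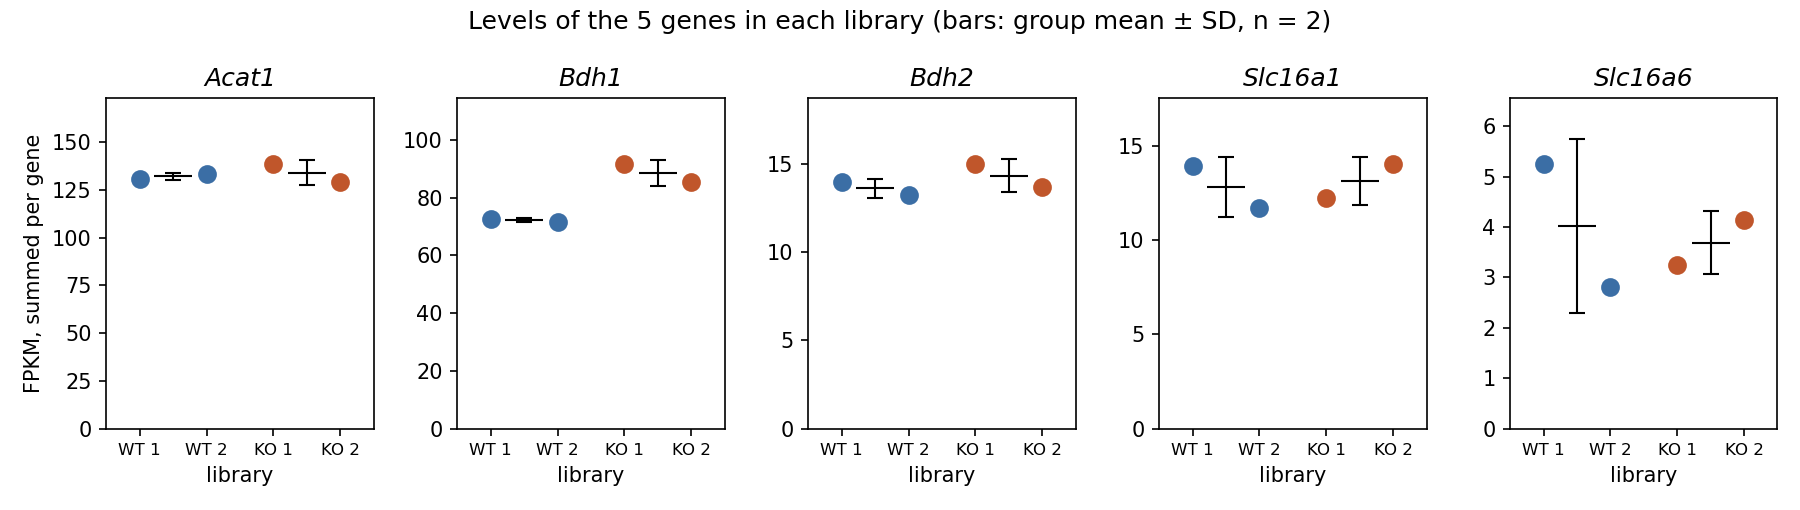
FPKM of each gene, summed over its transcript rows (vertical axis from 0, a scale of its own per gene), in the 2 WT (blue) and 2 KO (orange) libraries; horizontal bars are group means and error bars SDs with n = 2. Bdh1 lies at 71.6 and 72.6 FPKM in WT against 85.3 and 91.6 FPKM in KO, while the libraries of the other 4 genes overlap.

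In every library Acat1 was highest in FPKM, Bdh1 followed, Bdh2 and Slc16a1 were close to each other, and Slc16a6 was lowest. Acat1 had 9.21 to 11.4 times the FPKM of Slc16a1. Bdh2 and Slc16a1 did not differ beyond their spread: the ratio of Bdh2 to Slc16a1 ran from 0.975 to 1.23, with Slc16a1 the higher in KO replicate 2. Slc16a1 had 2.66 to 4.18 times the FPKM of Slc16a6.

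Acat1 encodes the mitochondrial acetoacetyl-CoA thiolase, which joins acetyl-CoA units in ketone body synthesis and also works in isoleucine breakdown (gene number 110446, chromosome 9, 53580522 to 53610350, minus strand, mm10). It had 131 and 133 FPKM in WT, against 138 and 129 FPKM in KO. The KO libraries lay on either side of the WT libraries. The means were 132 ± 1.80 FPKM for WT and 134 ± 6.53 FPKM for KO (SD, n = 2 each). The log2 difference was 0.02 (SE 0.11, limma adjusted p = 0.983), with a 95% interval from -0.25 to 0.29, which is 0.839 to 1.22 times the WT level. The highest library was 1.07 times the lowest, and only 5.01% of the tested genes had a smaller range over the 4 libraries on the log2(FPKM + 1) scale.

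Bdh1 encodes the dehydrogenase of the inner mitochondrial membrane that interconverts acetoacetate and beta-hydroxybutyrate (gene number 71911, chromosome 16, 31422297 to 31458901, plus strand). It had 72.6 and 71.6 FPKM in WT, and KO had 91.6 and 85.3 FPKM. Both KO libraries were above both WT libraries, and the gap between the groups was wider than the range within either. The means were 72.1 ± 0.703 FPKM for WT and 88.4 ± 4.43 FPKM for KO (SD, n = 2 each), a ratio of 1.23. The log2 difference was 0.29 (SE 0.11), and its limma adjusted p of 0.600 missed the threshold (0.0345 before adjustment). The 95% interval, not adjusted for the number of genes, ran from 0.03 to 0.55. Of all genes tested 88.5% had a smaller difference in size. The difference stayed above 0 with any 1 library left out, between 0.24 without KO replicate 1 and 0.34 without KO replicate 2.

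The ratio of Acat1 to Bdh1 does not change when all values of a library are multiplied by the same factor. It was 1.80 and 1.86 in WT and 1.51 and 1.52 in KO, so that the groups did not overlap. The ratio was formed after the values were seen and was not tested. It describes an unequal difference of the 2 genes in these 4 libraries only. Whether that holds beyond them, and which gene moved, it does not show. Divided by Bdh2, Bdh1 gave 6.11 and 6.24 for the KO libraries, above the 5.19 and 5.41 of the WT libraries. This second ratio reuses the Bdh1 values, adds no separate evidence and was not tested either. Bdh1 by itself did not overlap between the genotypes, as was the case for 38.7% of all genes tested. The ratios given above that leave out Bdh1 (Acat1 to Slc16a1, Bdh2 to Slc16a1 and Slc16a1 to Slc16a6) overlapped.

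The values of Bdh1 lay on the row NM_175177, whose transcript begins 17 bases from the upstream start printed above. That row held at least 99.7% of the FPKM of the gene in each library, with 72.5 and 71.5 FPKM in WT against 91.3 and 85.3 FPKM in KO. The other row, NM_001122683, begins 5 bases from the downstream start, 6456 bases away from the upstream one. It had 0.054 and 0.055 FPKM in WT and 0.289 FPKM in KO replicate 1, and was below 0.1 FPKM in KO replicate 2. Both transcripts have 7 exons and a coding length of 343 residues in GENCODE M21. They also differ in their 3' ends, and how fragments were shared between them is not given in the sources used here.

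**Figure D2:**
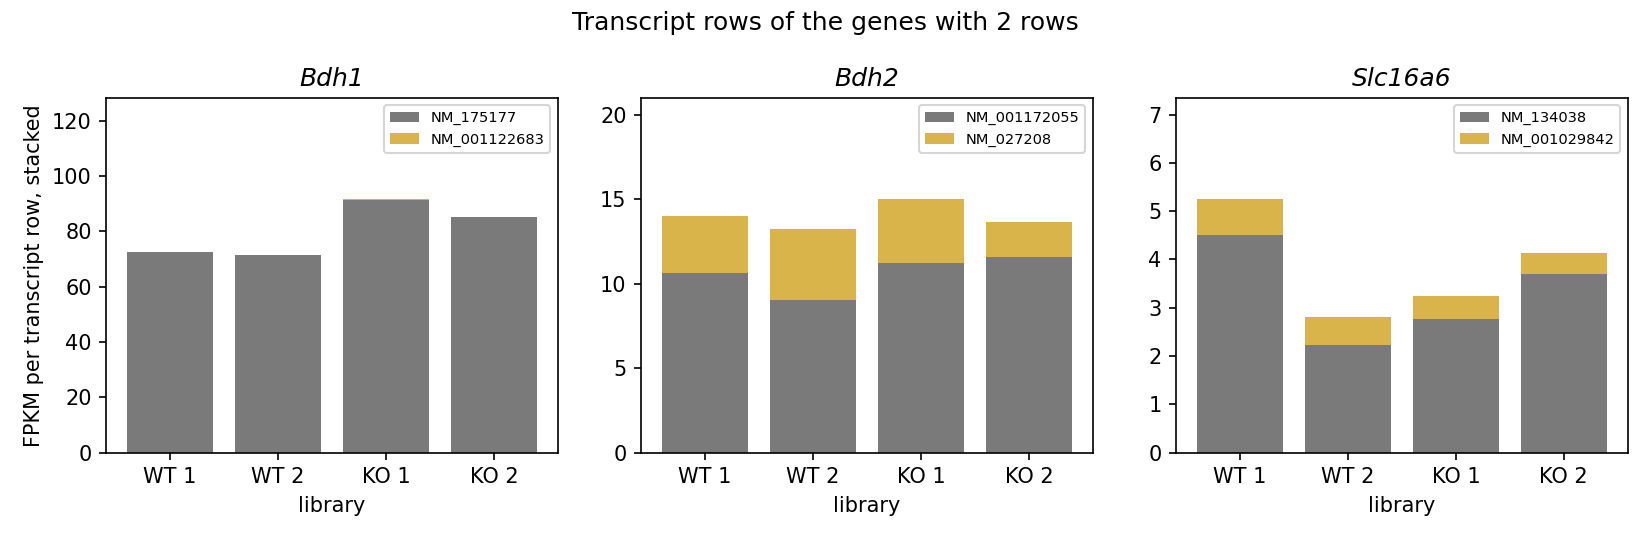
FPKM of the transcript rows of Bdh1, Bdh2 and Slc16a6, stacked per library (vertical axis from 0). Bdh1 is almost wholly NM_175177 in all 4 libraries, whereas the minor row of Bdh2 makes up 15.5% to 31.7% and that of Slc16a6 10.5% to 20.6% of the gene.

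Bdh2 encodes a cytosolic member of the short-chain dehydrogenase family that can also act on hydroxybutyrate (gene number 69772, chromosome 3, 135281221 to 135304426, plus strand). Summed over its rows it had 14.0 and 13.2 FPKM in WT compared with 15.0 and 13.7 FPKM in KO. The groups overlapped, with KO replicate 2 below WT replicate 1. The means were 13.6 ± 0.521 and 14.3 ± 0.931 FPKM (SD, n = 2 each), with a log2 difference of 0.07 (SE 0.11, limma adjusted p = 0.905; 95% interval -0.19 to 0.33).

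The rows of Bdh2 did not move alike. The leading row, NM_001172055, had 10.6 and 9.04 FPKM in WT, against 11.2 and 11.6 FPKM in KO, with both KO values above both WT values, as in 21.6% of all transcript rows. The other row, NM_027208, had 3.34 and 4.20 FPKM in WT, and KO had 3.76 and 2.12 FPKM, with overlap. Tested as rows, neither passed (limma adjusted p = 0.774 and 0.825; 0.0435% of rows passed). The leading row made up 76.1% and 68.3% of the gene in WT and 74.9% and 84.5% in KO, which overlaps. Their transcripts begin 40 bases apart and encode 255 and 245 residues in GENCODE M21.

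Slc16a1 encodes MCT1, a carrier of lactate, pyruvate and ketone bodies (gene number 20501, chromosome 3, 104638664 to 104658462, plus strand). It had 13.9 and 11.7 FPKM in WT compared with 12.2 and 14.0 FPKM in KO. KO replicate 1 lay inside the range of WT and KO replicate 2 just above it. The means were 12.8 ± 1.58 and 13.1 ± 1.28 FPKM (SD, n = 2 each), with a log2 difference of 0.03 (SE 0.13, limma adjusted p = 0.969; 95% interval -0.29 to 0.35). The sign turned with WT replicate 2 left out (-0.08) and with KO replicate 2 left out (-0.06).

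Slc16a6 encodes MCT7, a carrier needed for the export of beta-hydroxybutyrate from the liver in zebrafish (gene number 104681, chromosome 11, 109450855 to 109473598, minus strand), on the chromosome that also carries Srebf1. It had 5.25 and 2.80 FPKM in WT, against 3.25 and 4.13 FPKM in KO. The WT libraries were the highest and the lowest of the 4, and both KO libraries lay between them. The means were 4.02 ± 1.73 and 3.69 ± 0.623 FPKM (SD, n = 2 each), with a log2 difference of -0.06 (SE 0.24, limma adjusted p = 0.969). The 95% interval ran from -0.66 to 0.54, which is 0.633 to 1.45 times the WT level, the widest of the 5. The highest library was 1.87 times the lowest, and 93.0% of tested genes had a smaller range on the log2 scale.

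The value of Slc16a6 rests on fewer fragments than that of the other genes. At the approximate depths above, its leading row NM_134038 (4.50 and 2.22 FPKM in WT, 2.76 and 3.69 FPKM in KO) stands for about 238 and 107 fragments in WT and 146 and 178 in KO. The row of Acat1 stands for about 10002 and 9315 fragments in WT and 10572 and 9031 in KO. The gene shares 266 bases at its 5' end with Arsg on chromosome 11, an arylsulfatase gene at 26.5 and 21.5 FPKM in WT against 26.9 and 16.9 in KO. The use of strand is not given in the sources used here, so fragments from the shared bases could belong to either gene. The transcript of NM_001029842, the minor row, reaches into them, and that of NM_134038 begins at 109473294 and does not. RefSeq also places non-coding genes over Bdh1 (Gm15743), Bdh2 (Gm46826) and Slc16a6 (Gm45916, at most 0.168 FPKM), the first 2 of which were not used here. The sign of the Slc16a6 difference turned when WT replicate 1 (0.30) or KO replicate 1 (0.07) was left out, and the difference was -0.42 with WT replicate 2 left out and -0.20 with KO replicate 2 left out.

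**Figure D3:**
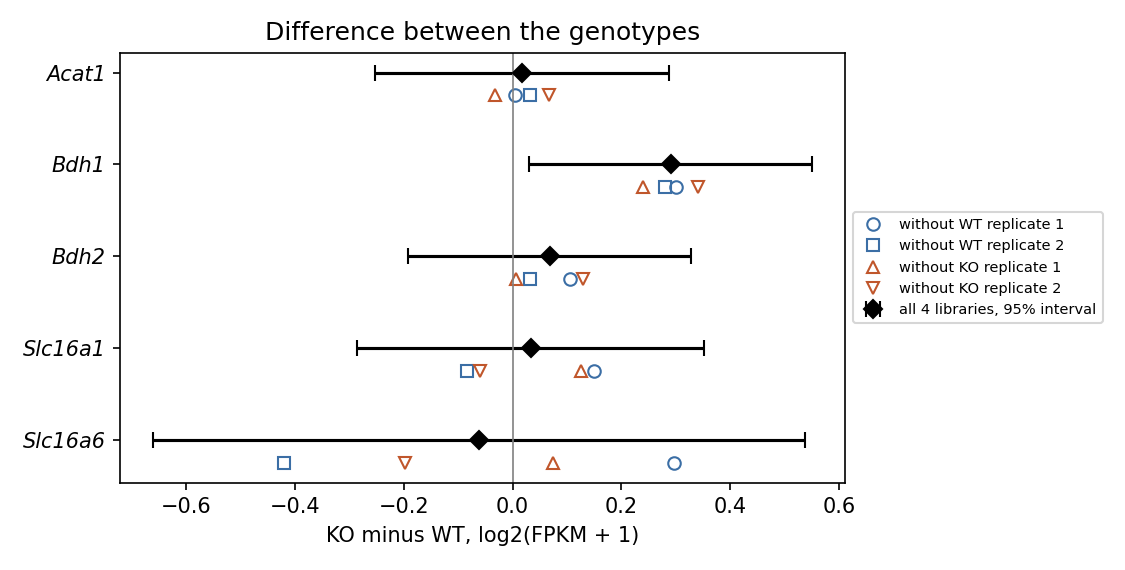
KO minus WT difference in log2(FPKM + 1) (horizontal axis) for each gene: black diamonds with 95% limma intervals from all 4 libraries, and open symbols with 1 library left out. Bdh1 lies between 0.24 and 0.34, and its sign could not turn because its groups do not overlap. Slc16a6 runs from -0.42 to 0.30, and Acat1 and Slc16a1 take both signs.

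By a rule of nearest profiles, the genes most like each member over the 4 libraries were sought among 4043 genes with a mean of at least 10 FPKM. The measure was the root mean square difference of log2(FPKM + 1) after each gene's own mean was subtracted. For Bdh1 they were Commd9 (0.0047) and Lsm4 (0.0080), for Acat1 Shc1 (0.0054) and Lias (0.0081), and for Bdh2 Tpt1 (0.0051) and Impa1 (0.0058). For Slc16a1 they were Dpp9 (0.0099) and Sptan1 (0.0113), and for Slc16a6 Rapgef4 (0.0821) and Dynll1 (0.110). With 4 libraries close profiles are common: 1820 genes lay within 0.1 of Acat1, 1722 of Bdh2, 647 of Slc16a1 and 504 of Bdh1, and 1 of Slc16a6. The mean of Slc16a6, 3.86 FPKM, is itself under the minimum of 10 FPKM, so genes of its own level were not compared.

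The enzymes and carriers around the 5 genes were described from 9 lists. No gene of these lists passed the limma threshold in either direction (0.0713% of all genes did). For each list the count at an unadjusted p under 0.05 is given below, beside the 7.75% of all genes.

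Among 7 other thiolases, 3 differences were above 0 and 4 below (median -0.09, 0 at an unadjusted p under 0.05). Acaa2, the mitochondrial thiolase of fatty acid oxidation, had 597 and 615 FPKM in WT compared with 613 and 528 FPKM in KO. Of the 7, 4 did not overlap, 2 in each direction, against 38.7% of all genes tested. Hadhb, the thiolase subunit of the trifunctional protein, was lower, with 151 and 150 FPKM in WT against 140 and 121 FPKM in KO. Scp2 was lower too, with 1814 and 1828 FPKM in WT against 1694 and 1530 FPKM in KO. Acaa1a and Acaa1b, both peroxisomal thiolases, lay the other way. Acaa1a had 158 and 170 FPKM in WT against 191 and 189 FPKM in KO. Acaa1b had 345 and 332 FPKM in WT against 403 and 381 FPKM in KO. Acat2, the cytosolic thiolase that feeds cholesterol synthesis, had 76.1 and 73.3 FPKM in WT, and KO had 113 and 65.6 FPKM. The KO libraries of Acat2 lay on both sides of WT. How fragments were shared between Acat2 and its close paralog Acat3, or between Acaa1a and Acaa1b, is not given in the sources used here, so these values are uncertain. Among 14 genes of fatty acid entry and mitochondrial oxidation, 4 differences were above 0 and 10 below (median -0.03, 0 at an unadjusted p under 0.05). Cpt1a, which admits fatty acids to mitochondria, had 28.4 and 36.2 FPKM in WT compared with 33.6 and 52.2 FPKM in KO. Of 10 genes of leucine and isoleucine breakdown, the amino acid route into the same pathway, 3 were above 0 and 7 below (median -0.08, 0 at an unadjusted p under 0.05).

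Ketone body use is low in hepatocytes, and of 4 genes for it Oxct2a and Oxct2b were listed at 0 in all libraries. As for Alb, a 0 here may not mean absent RNA. Oxct1, the CoA transferase with which other tissues activate acetoacetate, had 1.03 and 0.99 FPKM in WT, against 1.15 and 0.97 FPKM in KO, near the filter. Aacs, which activates acetoacetate in the cytosol for lipid synthesis, had 27.0 and 14.9 FPKM in WT, and KO had 28.2 and 5.54 FPKM. The Aacs groups overlapped widely, and its log2 difference was -0.61 (SE 0.68, limma adjusted p = 0.863). The median of the 2 tested genes was -0.29, with 0 at an unadjusted p under 0.05.

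Of 16 other monocarboxylate carriers and partner proteins 7 were tested, and 5 differences were above 0 and 2 below (median 0.14, 0 at an unadjusted p under 0.05). Bsg, which encodes basigin, the partner that brings MCT1 to the membrane, had 292 and 299 FPKM in WT compared with 321 and 341 FPKM in KO. Slc16a7, which encodes MCT2, had 12.1 and 12.8 FPKM in WT, against 13.9 and 13.8 FPKM in KO. Slc16a10, an aromatic amino acid carrier, had 15.1 and 13.6 FPKM in WT, and KO had 16.7 and 16.9 FPKM. Slc16a12, a creatine carrier, had 12.1 and 10.4 FPKM in WT against 15.0 and 13.0 FPKM in KO. These 4 had KO above WT without overlap, with limma adjusted p = 0.785, 0.775, 0.685 and 0.644. Slc16a11 lay just below, with 3.01 FPKM in both WT libraries against 2.91 and 2.77 FPKM in KO. Over all genes tested 22.4% had KO above WT without overlap and 38.7% did not overlap in either direction. Slc16a13 had 0.68 and 0.71 FPKM in WT compared with 0.98 and 0.56 FPKM in KO and was not tested. Slc16a1 and Slc16a7 were thus at similar levels per transcript length in these libraries, both above Slc16a6.

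Among 11 genes of pyruvate and lactate handling, 3 differences were above 0 and 8 below (median -0.24), and 2, Pdk4 and Dlat, had an unadjusted p under 0.05. Without overlap, 1 had KO above WT and 6 had KO below WT, against 38.7% of all genes in either direction. Ldha, lactate dehydrogenase A, had 384 and 468 FPKM in WT, against 458 and 766 FPKM in KO. Mpc1 and Mpc2 form the mitochondrial pyruvate carrier. Mpc1 had 183 and 199 FPKM in WT, and KO had 252 and 200 FPKM, while Mpc2 had 146 and 150 FPKM in WT against 169 and 141 FPKM in KO. Pdk4, a kinase that shuts pyruvate out of oxidation and is normally high in fasting, had 5.15 and 3.11 FPKM in WT compared with 2.15 and 1.62 FPKM in KO. The groups of Pdk4 did not overlap (log2 difference -0.81, SE 0.21, limma adjusted p = 0.432).

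Among 9 tested regulators of ketogenesis, 6 differences were above 0 and 3 below (median 0.06, 0 at an unadjusted p under 0.05). Ppara, which encodes the main inducer of the pathway in fasting, had 11.4 and 12.6 FPKM in WT, against 11.5 and 17.4 FPKM in KO, summed over its rows. Sirt3, the mitochondrial deacetylase, had 29.3 and 33.1 FPKM in WT and 34.9 in both KO libraries. Foxa2 had 11.6 and 10.6 FPKM in WT, and KO had 15.5 and 5.57 FPKM. Creb3l3 had 98.6 and 109 FPKM in WT compared with 106 and 96.5 FPKM in KO. Fgf21, a fasting hormone, had 1.06 and 0.29 FPKM in WT, against 0.96 and 5.71 FPKM in KO. Ppargc1a had 0.65 and 0.70 FPKM in WT, and KO had 0.30 and 0.37 FPKM, below the filter.

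Among 12 tested genes that fasting induces, 9 differences were above 0 and 3 below (median 0.25), and 2, Pdk4 and Vnn1, had an unadjusted p under 0.05. Against the WT mean their median was 0.73 in KO replicate 2 but 0.04 in KO replicate 1. Pck1, the gluconeogenic enzyme, had 170.0 and 300.0 FPKM in WT compared with 229 and 994 FPKM in KO. All 17 acute phase genes had a difference above 0 (median 0.50), against 54.6% of all genes tested. Of these, 3, Cebpb, Cebpd and Mt2, had an unadjusted limma p under 0.05. Against the WT mean the acute phase median was 1.09 in KO replicate 2 but -0.40 in KO replicate 1. Only 5 of the 17 had KO above WT without overlap. Mt2, which encodes a metal-binding protein, had 3.74 and 3.29 FPKM in WT, against 8.67 and 230.3 FPKM in KO. Beside these, Bdh1 had 85.3 FPKM in KO replicate 2, in which both lists were high, and 91.6 FPKM in KO replicate 1. Any link between these lists and Bdh1 was not tested.

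**Figure D4:**
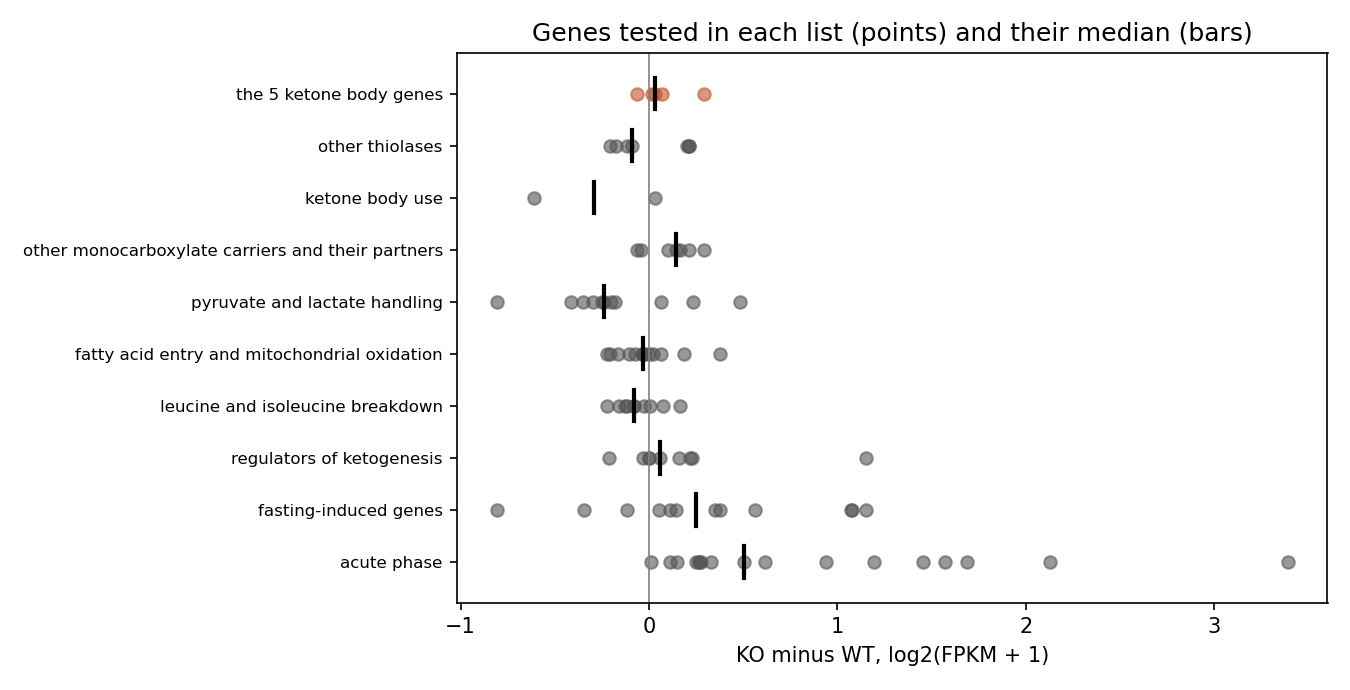
KO minus WT difference in log2(FPKM + 1) (horizontal axis) for each tested gene of the 5 members and the 9 lists (rows); points are genes and black bars medians. The members lie between -0.06 and 0.29, while acute phase genes spread up to 3.39 with a median of 0.50.

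Liver RNA holds several cell types, and fewer cells of a type cannot be told apart from less RNA per cell. No marker of the 8 cell type lists passed the threshold. Beside Cps1, an unadjusted limma p under 0.05 was found for Timd4 (1 of 9 tested Kupffer cell markers) and Clec4g (1 of 9 of sinusoidal endothelium). It was also found for Spp1 and Krt19 (2 of 3 of cholangiocytes) and Cfd (the only 1 tested of adipocytes). All of these but Cps1 were higher in KO. The other tested cholangiocyte marker, Sox9, overlapped, with 2.20 and 1.44 FPKM in WT against 1.18 and 2.09 FPKM in KO. The summed level of Kupffer cell markers was 169 and 141 FPKM in WT against 145 and 239 FPKM in KO, and that of stellate cell markers 52.2 and 57.1 in WT and 55.6 and 57.4 in KO. Sinusoidal endothelium markers summed to 65.2 and 68.6 FPKM in WT against 68.9 and 87.4 FPKM in KO. The largest part of that sum was Clec4g (29.5 and 32.1 FPKM in WT, 36.0 and 41.3 FPKM in KO). Of the 9 tested endothelium markers, 6 differences were above 0 and 3 below. Cholangiocyte markers summed to 25.6 and 23.8 FPKM in WT against 50.5 and 41.9 FPKM in KO, most of it Spp1 (21.3 and 20.2 FPKM in WT, 45.5 and 37.0 FPKM in KO), while Cftr was at most 0.0336 FPKM in each library. Lymphocyte and neutrophil markers summed to 11.7 and 13.5 FPKM in WT against 8.61 and 27.4 FPKM in KO, and red blood cell markers to 533 and 193 FPKM in WT against 173 and 351 FPKM in KO. Adipocyte markers summed to 0.59 and 0.23 FPKM in WT against 3.86 and 32.4 FPKM in KO, nearly all of it Cfd in KO, with Lep at 0 throughout. Adipoq and Plin1 were at most 0.170 and 0.073 FPKM and overlapped between the genotypes. Retn was at 0 but for 0.110 FPKM in KO replicate 2. The cholangiocyte, adipocyte and sinusoidal endothelium sums, like Bdh1, were higher in both KO libraries. For sinusoidal endothelium the gap was slight, with 68.9 FPKM in KO replicate 1 against 68.6 FPKM in WT replicate 2. The part of these cell types in the Bdh1 values was not tested.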

How the data were processed

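Liver RNA-seq libraries were grouped and numbered by their titles, 2 WT and 2 KO. The authors deposited FPKM values for RefSeq transcripts, as the file headers show. Bowtie, TopHat and the mm10 build are named in the submitters' processing notes. How FPKM was computed, on which annotation and with or without strand, is not given in the sources used here. FPKM carries no fragment counts, so no count test was run and depth was inferred only from the steps of low values.

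The 33170 rows were summed per gene number. Genes with a mean of at least 1 FPKM entered a limma fit (version 3.58.1, R 4.3.3, intensity trend) on log2(FPKM + 1), with Benjamini-Hochberg adjustment over all genes and a threshold of 0.05. This scale understates changes of low genes. The smallest two-sided p of an exact permutation test with 2 against 2 is 0.333, which is why single genes have none. The limma code was tested on simulated data first.

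The members and lists were chosen with earlier results of these data known. Named were all members, Srebf1, the 2 nearest profiles of each member (leaving out predicted genes), and genes picked by name from the 9 pathway lists whatever their result. Acaa1a, Acaa1b, Acat3, Oxct2a, Oxct2b, Slc16a11, Slc16a12, Dlat, Vnn1, Cebpb, Cebpd, Alb, Cps1, Timd4, Clec4g, Spp1, Krt19, Cftr, Cfd, Lep, Arsg and the non-coding genes were named after their values were seen. So was Scp2. Loci came from RefSeq (GRCm38.p6) and transcripts from GENCODE M21, both of the mm10 assembly. Alternatives were other pseudocounts, filters and scalings, no trend, a robust prior, rows as deposited, the replicate number as a block, a threshold of 0.1 and each library left out. Other software was pandas 2.3.3, numpy 2.4.6 and matplotlib 3.10.9 under python 3.11.15.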

Additional observations from a re-analysis of the deposited data

How the results depend on the processing

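None of the 5 genes passed under any alternative run. Over the 14 alternatives (13 for Slc16a6, whose mean is under 5 FPKM) the Bdh1 difference ran from 0.24 to 0.34. With 1 library left out its sign was fixed by the lack of overlap. In the alternatives that kept all 4 libraries its limma adjusted p ran from 0.454 to 0.667. Its unadjusted limma p was under 0.05 in all of those, which reuse the same 4 libraries. With 1 library left out, which leaves a single library in 1 genotype, it was not under 0.05 in most runs. The Bdh2 difference ran from 0.01 to 0.13 where its rows were summed, and with rows as deposited it was 0.20 for the leading row and -0.30 for the other. The Acat1 difference turned to -0.0084 with upper-quartile scaling. With each library left out it ran from -0.032 to 0.067, that of Slc16a1 from -0.084 to 0.15 and that of Slc16a6 from -0.42 to 0.30, and the cause was not tested.

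Over all genes 7 were called. The count was 11 with a pseudocount of 0.1, 0 without a filter (1233 at an unadjusted p under 0.05), 3 with a minimum of 5 FPKM, 4 with quantile normalization and 15 with a robust prior. It ran from 1 without WT replicate 1 to 306 without KO replicate 1, with 4 without WT replicate 2 and 117 without KO replicate 2. With the replicate number as a block it was 19, with 0 of the 5 members. The labels give no shared litter or day. The deviations of same-numbered libraries correlated at 0.17 across genes and their inferred depths were alike, and with 2 pairs this does not settle whether the numbers pair the libraries.

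Slc16a6 rests on the fewest fragments. The 95% intervals of Bdh2, Slc16a1 and Slc16a6 include the difference seen for Bdh1. That of Acat1 ends at 0.288, just short of the 0.290 of Bdh1. The Bdh1 difference has an interval of its own, from 0.03 to 0.55, so this does not show whether the genes differ.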
